A study of Mus musculus with 6 samples.

Results

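Transcripts of 8 genes of fatty acid oxidation and of its regulator PPAR-alpha were measured in GFP-positive cells sorted from embryonic mouse livers. The genes were taken by symbol, and all 8 were found among the 52550 genes listed: the receptor gene Ppara, the enzyme genes Cpt1a, Acadm, Ehhadh, Acaa1b and Pdk4, the lipid droplet gene Plin2 and the hormone gene Fgf21. All embryos were of the CD-1 strain and carried the Sox9-GFP transgene, a green fluorescent reporter of Sox9, the gene of a transcription factor of early biliary cells, and the labels name no further treatment. There were 3 libraries of total RNA at E16.5 and 3 at E18.5, here replicates A, B and C of each stage, each from a pool of 15 livers. The sample labels call the cells cholangiocytes, the epithelial cells of bile ducts, and give the stages as days 16 and 18, whereas the study's text gives E16.5 and E18.5, which are used here. Per the methods, blood cells bearing surface markers of the erythroid, myeloid and lymphoid lineages were first depleted with magnetic beads, and the cells were then sorted by GFP. The labels do not say whether the pools of a stage came from separate litters, so p-values measure the spread between these libraries.

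In liver, fatty acids are burnt in mitochondria and peroxisomes. Long-chain fatty acids enter mitochondria as carnitine esters, a step that Cpt1a controls, and are then shortened by chain-length-specific dehydrogenases and their partner enzymes, while very long chains are shortened in peroxisomes. PPAR-alpha is a nuclear receptor that fatty acids activate, pairs with a retinoid X receptor on DNA and raises many of these genes in fasting and around birth, when milk fat becomes the main fuel.

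The libraries carried markers of several cell types. All 11 biliary markers were detected at both stages. Of the 11, 9 rose and 0 fell with an adjusted p under 0.05 in limma, the rule for every gene said here to rise or fall, and their sum was 746 to 2513 TPM at E16.5 (transcript counts scaled by gene length and by the library total) and 8063 to 13867 TPM at E18.5. Of 12 hepatoblast markers, 6 fell and 0 rose. Their sum, led by Alb, was 17.9, 18.8 and 22.8% of all TPM in the E16.5 libraries, given here and throughout in the order A, B, C, and 8.56, 4.15 and 10.3% in those of E18.5. All 8 megakaryocyte markers fell, from a sum of 2822 to 8363 TPM to one of 71.9 to 656 TPM, and 1 of 10 erythroid markers fell, all after the depletion of blood cells. Of 7 pancreatic acinar markers 3 fell, and their E16.5 level was highest in replicate A, with Ctrb1 at 1914, 167 and 53.1 TPM. Endothelial (1 of 8), mesenchymal (2 of 8) and leukocyte (2 of 8) markers rose in part, with 0 falls. These rises did not exceed the share of all genes. Of the 22452 genes tested, 26.0% rose and 5.22% fell. With median-of-ratios scaling, which equalises the typical gene between libraries, 4 biliary and 1 mesenchymal markers rose, 0 endothelial and 0 leukocyte markers did, and 5 hepatoblast, 8 megakaryocyte, 1 erythroid, 0 acinar and 1 leukocyte markers fell. On that scaling 6.44% of all genes tested rose and 10.5% fell. Adipocyte and muscle markers, of tissues rich in the same pathway, stayed at 1.36 TPM or less. In these bulk libraries, fewer cells of a type and less RNA per cell cannot be told apart. Reads recovered from the TPM came to 23193537 to 26206374 per library at E16.5 and to 13093937 to 22643868 at E18.5, so each E18.5 library was the shallower. Counting error is small for 7 of the 8 genes, which had between 124 and 6953 reads in a library.

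The 3 promoter windows with the hexamer AGGTCA, the core of the element that PPAR-alpha and its partner bind, are shown because Cpt1a, the gene that rose, is one of them. They are RefSeq windows on GRCm38.p6 from 250 bases before to 50 bases after the start of the gene, written 5′ to 3′ on the strand of the gene, with the hexamer in capitals. In each of them it lies on the opposite strand and therefore reads TGACCT.
Cpt1a (chr19:3323051-3323350, forward strand): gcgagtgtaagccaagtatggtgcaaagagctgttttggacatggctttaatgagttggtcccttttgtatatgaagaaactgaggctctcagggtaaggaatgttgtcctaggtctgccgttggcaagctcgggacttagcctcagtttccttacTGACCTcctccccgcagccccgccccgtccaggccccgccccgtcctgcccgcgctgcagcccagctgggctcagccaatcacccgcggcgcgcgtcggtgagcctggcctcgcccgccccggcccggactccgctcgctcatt
Acadm (chr3:153944594-153944893, reverse strand): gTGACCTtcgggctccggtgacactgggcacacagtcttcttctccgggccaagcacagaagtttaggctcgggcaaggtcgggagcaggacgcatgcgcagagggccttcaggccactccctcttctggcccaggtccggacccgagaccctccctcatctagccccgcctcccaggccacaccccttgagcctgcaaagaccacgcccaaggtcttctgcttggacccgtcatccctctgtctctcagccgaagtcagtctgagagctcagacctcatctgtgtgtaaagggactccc
Plin2 (chr4:86670010-86670309, reverse strand): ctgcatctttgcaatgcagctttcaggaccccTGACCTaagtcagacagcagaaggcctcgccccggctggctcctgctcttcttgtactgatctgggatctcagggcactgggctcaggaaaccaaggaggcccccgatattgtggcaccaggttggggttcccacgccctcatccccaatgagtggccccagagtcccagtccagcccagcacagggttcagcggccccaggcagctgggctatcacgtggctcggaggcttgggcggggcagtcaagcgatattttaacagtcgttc
Counted from the start of the gene, the hexamer begins at position -94 in Cpt1a, -249 in Acadm and -218 in Plin2. Searched on both strands, it was in the windows of 3 of the 8 genes and in 16.3% of 32851 mouse promoter windows. The direct repeat AGGTCANAGGTCA, which contains the hexamer 2 times, was in 0 of the 8 windows and in 0.0396% of all.

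Acaa1b needs a second look at sequence, since its neighbour Acaa1a is nearly the same gene. Over the 1275 coding bases of both, 96.5% were identical, and 30.5% of the 50-base stretches of Acaa1b transcripts also occur in Acaa1a. The stretch from coding base 319 to 418, with 0 differences, cannot tell the genes apart by a read that falls within it, while bases 453 to 552, with 14 differences in capitals, can. All 4 are transcript sequence of GENCODE vM21.
Acaa1b 319 to 418: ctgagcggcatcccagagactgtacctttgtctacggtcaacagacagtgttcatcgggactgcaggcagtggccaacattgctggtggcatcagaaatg
Acaa1a 319 to 418: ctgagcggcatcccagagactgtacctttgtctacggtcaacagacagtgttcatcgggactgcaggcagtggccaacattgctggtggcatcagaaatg
Acaa1b 453 to 552: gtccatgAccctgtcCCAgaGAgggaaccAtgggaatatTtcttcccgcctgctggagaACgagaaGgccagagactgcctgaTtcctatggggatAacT
Acaa1a 453 to 552: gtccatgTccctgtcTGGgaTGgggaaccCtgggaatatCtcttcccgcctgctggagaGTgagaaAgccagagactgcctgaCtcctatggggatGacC
Levels of both genes are therefore uncertain where reads matching both were left out or divided in the counting.

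The design sets E18.5 against E16.5. Of the 7 genes abundant enough for the test, Cpt1a rose, to 1.75 times its E16.5 mean, and the other 6 did not pass the threshold in either direction. Fgf21 was barely detected. Cpt1a was 1 call among 7 genes, against 31.2% of all 22452 genes tested (26.0% higher and 5.22% lower at E18.5). The median log2 fold change was -0.29 over the 7 genes and 0.42 over all genes tested, so that a gene of unchanged TPM lay below the general shift. With median-of-ratios scaling, the median of all genes was 0.011, and 0 of the 7 genes passed, against 6.44% of all genes higher and 10.5% lower.

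**Figure D1:**
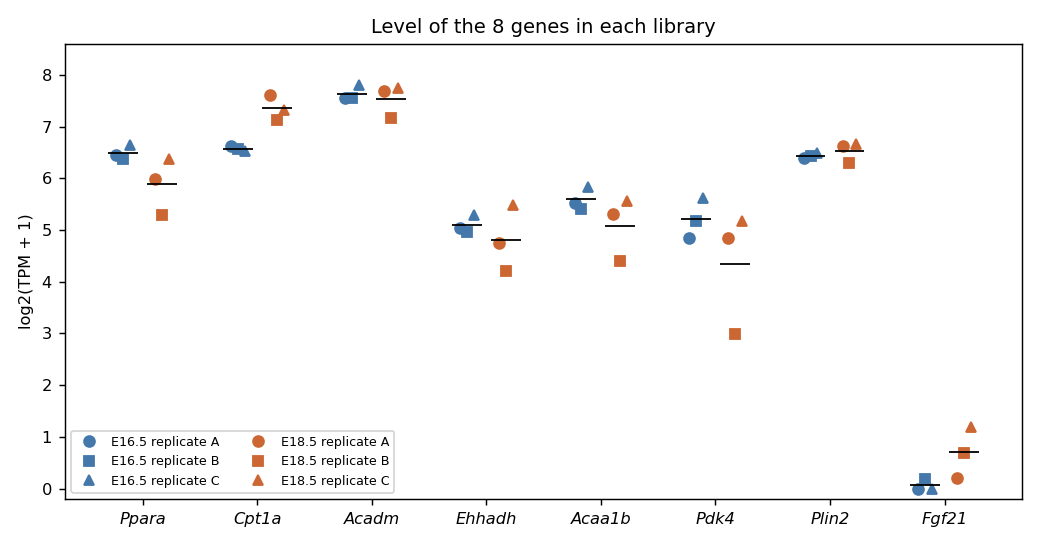
Level of each of the 8 genes as log2(TPM + 1) in the 3 E16.5 libraries (blue) and the 3 E18.5 libraries (orange), with symbols for the replicates and a bar at the mean of each stage. The E18.5 libraries lie above all E16.5 libraries for Cpt1a and Fgf21, but for Fgf21 the lowest E18.5 and the highest E16.5 value are 1 read each. Replicate B is the lowest E18.5 library for each gene but Fgf21.

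Ppara encodes PPAR-alpha itself and lies on the forward strand at chr15:85734983-85802819 of GRCm38. Its level was 86.4, 81.9 and 98.6 TPM at E16.5 and 62.3, 38.3 and 82.2 TPM at E18.5. The stages overlapped by a single library, since replicate C of E18.5 was slightly above replicate B of E16.5. The mean went from 89.0 ± 8.66 to 60.9 ± 22.0 TPM (SD, n = 3), a log2 fold change of -0.60 with a standard error of 0.26 and an adjusted p of 0.115 (limma, Benjamini-Hochberg over all genes tested). The call depended on the libraries and the method. It passed without replicate C of E18.5, at -0.85 and an adjusted p of 0.0415, and in limma voom on the recovered reads, at -0.76 and an adjusted p of 0.0467. The fold change stayed negative in all 17 alternatives, from -1.06 to -0.31.

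Cpt1a, on the forward strand at chr19:3322334-3385733, encodes the liver form of carnitine palmitoyltransferase 1, which commits long-chain fatty acids to mitochondria. Its level was 97.7, 93.3 and 91.0 TPM at E16.5 and 196, 139 and 160 TPM at E18.5. The stages did not overlap, and the lowest E18.5 value was well above the highest E16.5 value. Among the 7 genes this held for Cpt1a alone, while of all genes tested 53.3% did not overlap, 45.0% with E18.5 above and 8.30% with E18.5 below. The mean rose from 94.0 ± 3.42 to 165 ± 29.0 TPM (SD, n = 3), with a log2 fold change of 0.79, a standard error of 0.14 and an adjusted p of 0.0137. The exact two-sided permutation test on the TPM gave p = 0.1, the smallest that 3 libraries against 3 allow. The rise passed in 16 of 17 alternatives, among them each of the 6 that left out a library (0.66 to 0.91). It did not pass with median-of-ratios scaling, where the fold change was 0.33 with an adjusted p of 0.235.

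Acadm encodes medium-chain acyl-CoA dehydrogenase, which opens each round of oxidation of medium chains, and lies on the reverse strand at chr3:153922357-153944632. It had 186, 188 and 223 TPM at E16.5 and 206, 143 and 214 TPM at E18.5, with a fold change of -0.10 ± 0.18 (SE) and an adjusted p of 0.674. The E16.5 values lay within the E18.5 values but for replicate C, and without replicate B of E18.5 the fold change was 0.081. Of its 50-base stretches, 2.04% also occur in Gm5131.

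Ehhadh and Acaa1b are the peroxisomal enzymes of the set. Ehhadh encodes the bifunctional enzyme of the middle steps of peroxisomal oxidation and lies on the reverse strand at chr16:21761287-21787807. It had 31.9, 30.2 and 38.3 TPM at E16.5 and 25.9, 17.4 and 43.6 TPM at E18.5. The E18.5 libraries lay on both sides of the E16.5 ones, and the fold change of -0.29 ± 0.31 (SE, adjusted p = 0.479) became 0.014 without replicate B of E18.5. Acaa1b, a thiolase gene for the last step, lies on the reverse strand at chr9:119148023-119157093. It had 45.2, 41.4 and 56.4 TPM at E16.5 and 38.5, 20.0 and 46.2 TPM at E18.5. Replicate B of E18.5 was again far below the other libraries, which overlapped, and the fold change was -0.51 ± 0.30 (SE) with an adjusted p of 0.220, and -0.16 without that library. Besides the sequence shared with Acaa1a, 11.4% of the exon sequence of Acaa1b is overlapped by Dlec1 on the opposite strand. The exons of the other 7 genes overlap no other annotated exon.

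Pdk4 encodes a kinase that switches off pyruvate dehydrogenase and so spares glucose when fat is burnt, and lies on the reverse strand at chr6:5483351-5496309. It varied most between libraries of the 7 genes tested. Its level was 27.7, 35.3 and 48.0 TPM at E16.5 and 27.9, 6.91 and 35.2 TPM at E18.5. The value of replicate B of E18.5 rests on 124 reads, with a 95% exact (Clopper-Pearson) interval of 5.75 to 8.24 TPM for counting error only. The fold change was -0.87 ± 0.55 (SE) with an adjusted p of 0.244, and -0.20 without that library.

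Plin2 encodes a coat protein of lipid droplets, where fatty acids are stored, and lies on the reverse strand at chr4:86648386-86670060. Its libraries lay close together, with 82.8, 85.4 and 89.2 TPM at E16.5 and 98.2, 78.0 and 100.5 TPM at E18.5. The fold change was 0.094 ± 0.13 (SE) with an adjusted p of 0.587. Its sign depended on the scaling, at -0.37 with median-of-ratios scaling and -0.13 with quantile normalization. Of its 50-base stretches, 2.57% also occur in Gm12551.

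Fgf21 encodes a hormone that the liver releases under PPAR-alpha control and lies on the reverse strand at chr7:45613886-45615490. It had 0, 1 and 0 reads at E16.5 and 1, 3 and 5 reads at E18.5, that is 0, 0.135 and 0 TPM against 0.154, 0.617 and 1.29 TPM. It was left out of the test, which needed 1 TPM on average. A count of 3 reads, which a count of 0 allows, corresponds to between 0.368 and 0.777 TPM in these libraries, and 1 library lay above its limit. Together, 9 reads at E18.5 against 1 at E16.5 give a depth-corrected ratio of 13.7 with a 95% exact interval from 1.90 to 600, which covers counting error only.

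**Figure D2:**
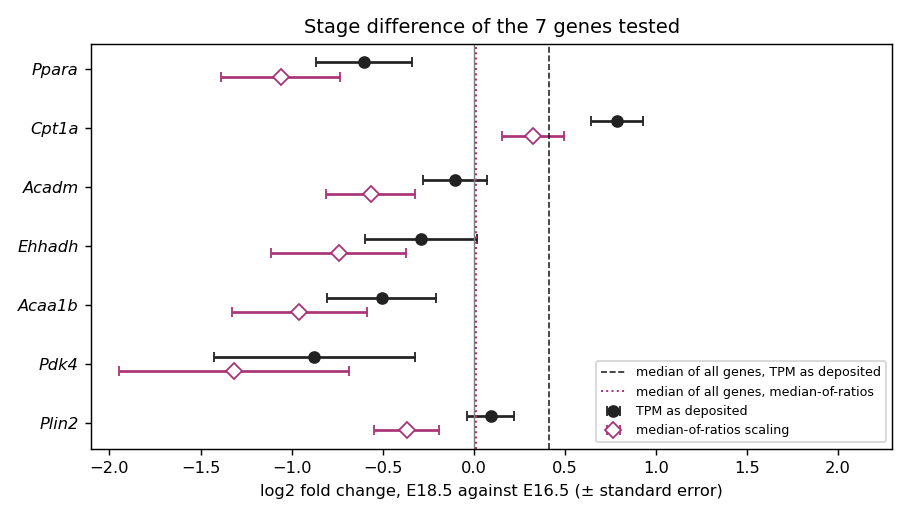
Log2 fold change from E16.5 to E18.5 of the 7 genes tested, with the standard error, for the TPM as deposited (black circles) and with median-of-ratios scaling (open diamonds). The dashed and dotted lines mark the median of all genes tested under each scaling (0.42 and 0.011), and of the black circles only that of Cpt1a lies above the dashed line.

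The order of the levels shifted as Cpt1a rose. At E16.5 Acadm stood alone at the top with 199 ± 20.6 TPM (SD, n = 3), above 98.2% of the 21819 protein-coding genes. Cpt1a, Ppara and Plin2 followed, each overlapping the next in its range of values, then Acaa1b, Pdk4 and Ehhadh, again overlapping, and Fgf21 last. At E18.5 Acadm (188 ± 38.7 TPM) and Cpt1a overlapped at the top and were apart from Plin2, which opened an overlapping run down to Pdk4. The share of protein-coding genes below each gene went from 94.9 to 97.4% for Cpt1a, from 94.5 to 88.1% for Ppara, from 87.3 to 77.7% for Acaa1b and from 83.2 to 69.3% for Pdk4. The spread grew with stage in each of the 7 genes, from coefficients of variation of 3.64 to 27.7% at E16.5 to 13.4 to 62.9% at E18.5.

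The same library was low in all of them. Replicate B was the lowest E18.5 library in 7 of 7 genes, as in 20.7% of all genes tested, and replicate C was the highest E16.5 library in 6 of 7, as in 21.7% of all. Both held for 6 of 7 genes, against 8.16% of all. The hepatoblast markers had the same order, with replicate B lowest at E18.5 in 12 of 12 and replicate C highest at E16.5 in 11 of 12. Biliary markers did not, with 3 of 11 and 0 of 11. The part of hepatoblast content in the levels of the 7 genes was not tested.

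Relative to the hepatoblast markers, most of the genes were higher at E18.5, as were most genes of the whole table. Per 1000 TPM of the 12 summed hepatoblast markers, Ppara had 0.451 ± 0.0286 TPM at E16.5 and 0.815 ± 0.0978 at E18.5 (SD, n = 3), and Cpt1a 0.481 ± 0.0751 and 2.39 ± 0.896. Acadm went from 1.01 ± 0.0325 to 2.64 ± 0.716, Plin2 from 0.436 ± 0.0393 to 1.33 ± 0.479, Ehhadh from 0.169 ± 0.00887 to 0.381 ± 0.0681 and Acaa1b from 0.240 ± 0.0175 to 0.460 ± 0.0194. In these 6 of 7 genes the E18.5 libraries were all above the E16.5 libraries, as they were for 82.1% of all genes tested on this scale. Pdk4, at 0.184 ± 0.0280 and 0.278 ± 0.0969, overlapped. Because the marker sum fell between the stages, a gene of steady TPM rises on this scale.

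**Figure D3:**
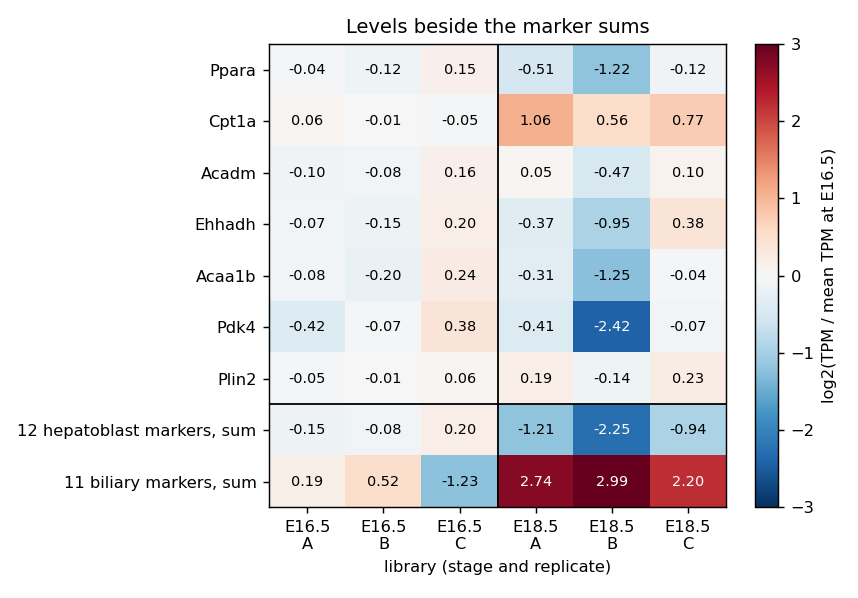
Log2 of the TPM in each library over the mean TPM at E16.5, for the 7 genes tested and for the sums of 12 hepatoblast and 11 biliary markers, with red above and blue below that mean. Ppara, Ehhadh, Acaa1b and Pdk4 are lowest in replicate B of E18.5, as is the hepatoblast sum (-2.25), while Cpt1a is above its E16.5 mean in all 3 E18.5 libraries.

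A ratio to a partner gene within a library does not depend on the scaling. There were 7 such ratios, chosen with the levels known, and each was compared with an exact two-sided permutation test. Cpt1a over Cpt2, the gene of the enzyme that completes the shuttle inside mitochondria, was 1.29, 1.37 and 1.09 at E16.5 and 3.36, 2.43 and 2.72 at E18.5. The E18.5 ratios were all above the E16.5 ratios. Ppara over Ppard, a second receptor of the family, went from 5.75 ± 0.888 to 3.36 ± 1.26 (SD, n = 3), and Pdk4 over Pdk2, a related kinase, from 1.83 ± 0.505 to 0.779 ± 0.357. In both, the E18.5 libraries were all below the E16.5 libraries. Each of these 3 had an exact p of 0.1, the smallest possible, and 0.233 after adjustment over the 7. Acaa1b over Acaa1a went from 1.13 ± 0.305 to 0.740 ± 0.296, with overlap and an exact p of 0.3. Acadm over Acadl, Ehhadh over Hsd17b4 and Plin2 over Plin3 overlapped too.

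Genes whose levels followed those of the set most closely were sought among the 15370 genes averaging 5 TPM or more, by Pearson's r of log2(TPM + 1) over the 6 libraries. This is a description, since the points share the stage difference and the library spread. Ppara was closest to Ttc36 (r = 0.999) and Sephs2 (0.998), and Ehhadh to Hal (0.997), the first enzyme of histidine breakdown, and Gstk1 (0.993). Acaa1b was closest to Car5a (0.997), a mitochondrial carbonic anhydrase, and Bhmt2 (0.995). Pdk4 was close to Adhfe1 (0.997). Cpt1a went instead with Pfkl (0.997), the liver phosphofructokinase of glycolysis, and with the intronic transcript Gm28512 (0.996). Acadm was closest to Plk3 (0.994) and Ctsl (0.992), and Plin2 to Paqr9 (0.992) and Gm23094 (0.991).

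Around the 8 genes, lists of pathway genes held 99 other genes that passed the filter of 1 TPM. Of these, 22 rose and 13 fell, together 35.4%, and their median log2 fold change was -0.024. Of all genes tested, 31.2% were called, 26.0% higher and 5.22% lower at E18.5. With median-of-ratios scaling 7 of the 99 rose and 28 fell, against 6.44% and 10.5% of all genes. These shares of all genes are also the background for the counts of each list. With median-of-ratios scaling all 13 that fell and 7 of the 22 that rose passed again, among them Fgfr1, Fgfr2, Fgfr3, Fgfr4, Kl and Slc27a1. Without replicate A of E18.5, 11 of the 35 passed. The calls below are those on the TPM as deposited, as log2 fold changes with adjusted p from limma, and the counts of each list include those of the 8 genes that belong to it. The second median given for a list, and the rises and falls beside it, are those with median-of-ratios scaling.

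In the carnitine shuttle, 2 of 6 genes rose and 1 fell (median 0.16, and -0.29 with 0 rises and 1 fall). Beside Cpt1a, its brain form Cpt1c rose by 0.89 (adjusted p = 0.0220) and Cpt2 fell by 0.37 (adjusted p = 0.0441). The carrier Slc25a20, at 0.028, did not pass, and the muscle form Cpt1b had at most 1.31 TPM. Mitochondrial beta-oxidation held 16 genes, of which 1 rose and 2 fell, and 15 of them lay below the median of all genes (median -0.26, and -0.72 with 0 rises and 9 falls). Other lists shared this position, with 13 of 15 peroxisomal genes, 16 of 20 other PPAR-alpha targets and 5 of 5 ketone body genes below that median. Of the receptor and coregulator genes 6 of 13 lay below it, and of the endocrine FGF axis 1 of 6. Hadh, for the third step of short chains, fell by 0.71 (adjusted p = 0.0105) and Etfa, an electron carrier, by 0.50 (0.0280), whereas the isomerase Eci2 rose by 0.83 (0.0137). Not past the threshold were Acadvl (-0.30), Acadl (-0.23), Acads (-0.17) and Hadha (-0.20), the dehydrogenases of other chain lengths and the trifunctional enzyme.

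Of 15 peroxisomal genes, 2 rose and 1 fell (median -0.032, and -0.50 with 0 rises and 1 fall). Acox2, an oxidase of bile acid precursors and branched chains, fell by 1.75 (adjusted p = 0.0349), while its relative Acox3 rose by 0.70 (0.0273) and the transporter Abcd3 by 0.46 (0.0187). Hsd17b4, at 0.016, and Acaa1a, at 0.15, did not pass. Of 5 ketone body genes, 0 rose and 2 fell (median -0.56, and -1.03 with 2 falls), among them Bdh1, which interconverts the ketone bodies, by 1.44 (adjusted p = 0.00890).

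Of 13 receptor and coregulator genes, 6 rose and 0 fell (median 0.48, and 0.019 with 1 rise and 0 falls). Pparg, the receptor best known in fat tissue, rose by 1.17 from a mean of 1.86 to one of 5.39 TPM (adjusted p = 0.0216), the deacetylase Sirt1 by 0.78 (0.0112) and the coactivator Ppargc1a by 0.55 (0.0377). Ppard was at 0.22 and Rxra at 0.41 (adjusted p = 0.0572), both short of the threshold. Among 20 other genes known as PPAR-alpha targets, 2 rose and 2 fell (median -0.28, and -0.75 with 1 rise and 4 falls). The fatty acid transport genes Slc27a1 and Cd36 rose by 1.72 (adjusted p = 0.0108) and 1.20 (0.0295), and the thioesterase gene Acot2 fell by 0.94 (0.0142), as did Cpt2.

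The omega-hydroxylase genes Cyp4a10 and Cyp4a14 differed widely between the E18.5 libraries. Cyp4a10 had 2.16, 0.790 and 2.20 TPM at E16.5 and 26.0, 1.95 and 53.0 TPM at E18.5, and Cyp4a14 had 1.26, 0.345 and 1.01 against 12.8, 1.73 and 36.6 TPM. Replicate B of E18.5 was near the E16.5 level in both, the others far above it, and the fold changes of 2.63 (adjusted p = 0.0788) and 2.62 (0.0565) did not pass. Fabp1 at -0.72 and Angptl4 at -0.87 were also short of the threshold.

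Of 6 pyruvate dehydrogenase kinases and phosphatases, 0 rose and 0 fell, with Pdk1 at 0.049, Pdk2 at 0.38 and Pdk3 at 0.11 (median 0.0053, and -0.43 with 0 rises and 2 falls). Of 13 lipid droplet genes, 3 rose and 4 fell (median 0.16, and -0.20 with 0 rises and 4 falls). G0s2, an inhibitor of lipolysis, fell by 1.79 (adjusted p = 0.0104), Pnpla3 by 1.27 (0.0133) and Cideb by 0.94 (0.0432). Mgll and Pnpla2, lipases, rose by 1.08 (0.0359) and 0.69 (0.0131), and Dgat1, which makes triglyceride, by 0.81 (0.0193). Plin3 (0.38), Plin4 (0.65) and Plin5 (0.47) did not pass, and Plin1 had at most 0.0530 TPM. For the hormone Fgf21, the coreceptor Klb stayed short of the threshold at 0.084 (61.6 ± 4.39 and 65.7 ± 9.96 TPM; SD, n = 3), and 5 of 6 genes of the endocrine FGF axis rose and 0 fell (median 1.25, and 0.89 with 5 rises and 0 falls). Fgfr3 rose by 2.34 (adjusted p = 0.0132), Fgfr1 by 1.41 (0.0110), Fgfr2 by 1.29 (0.0105) and Fgfr4 by 0.98 (0.0135). The remaining rise was that of Kl, from a mean of 0.567 to one of 2.67 TPM. Replicate C was the lowest E16.5 library for these receptor genes, as for the sum of the 11 biliary markers. Replicate B was the highest E18.5 library for that sum and for Fgfr1, Fgfr3 and Fgfr4, and replicate A for Fgfr2. The part of biliary content in these levels was not tested. Of 11 genes of fatty acid synthesis, the opposite pathway, 2 rose and 2 fell (median -0.10, and -0.55 with 0 rises and 7 falls): Me1 rose by 0.97 (adjusted p = 0.0308) and Elovl5 by 0.56 (0.0139), and Scd1 fell by 0.97 (0.0127) and Elovl6 by 0.54 (0.0370).

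**Figure D4:**
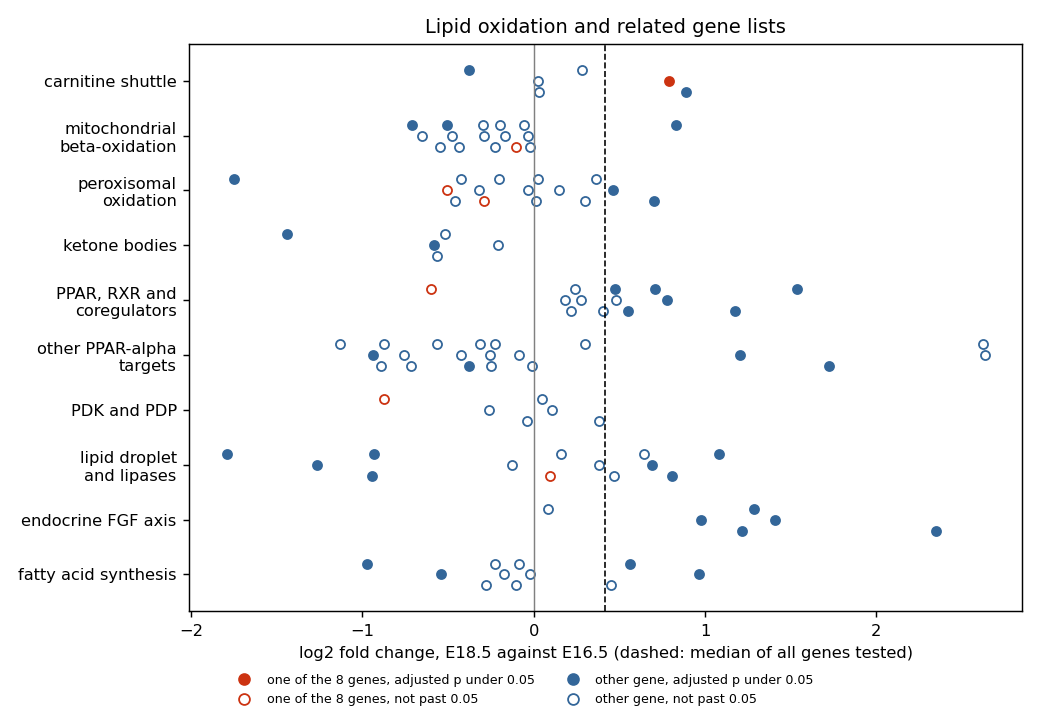
Log2 fold change from E16.5 to E18.5 of each gene tested in the 10 lists, on the TPM as deposited, with filled points for an adjusted p under 0.05 and red points for the 8 genes described first. The dashed line is the median of all genes tested (0.42). Below it lie 15 of the 16 genes of mitochondrial beta-oxidation, 13 of 15 peroxisomal genes and 1 of 6 genes of the endocrine FGF axis.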

How the data were processed

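RNA of GFP-positive cells sorted from Sox9-GFP mouse livers was sequenced by the authors with a stranded total RNA kit. Per the submitters' processing notes and the methods, reads were checked with FastQC 0.11.7, trimmed with Trimmomatic, aligned to GRCm38 with HISAT2 2.1.0 and counted with HTSeq 0.5.4p3 on GENCODE annotation. Whether counting used the strand is not given in the sources used here. The authors converted the counts to TPM, which were deposited for 52550 genes in 6 libraries. TPM values of a library have a fixed sum, so a fall of abundant transcripts raises all others. The 37 mitochondrial genes are listed at 0.

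Names and places came from GENCODE vM21, with 52403 identifiers matched and 147 not. Whole reads (within 0.01) were recovered from TPM and exon length for 100% of 180057 nonzero values. For Cpt1a and Ehhadh, whose exon length differs between annotations, the smallest length giving whole reads in all libraries was used (4300 and 3018 bp), chosen after seeing the values. Intervals and limits cover counting error only.

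The 22452 genes averaging 1 TPM or more were tested between stages on log2(TPM + 1), which understates changes of low genes. The model was limma's (version 3.58.1, R 4.3.3), with a mean-variance trend in eBayes, and adjusted p-values (Benjamini-Hochberg) under 0.05 were called. Single ratios and TPM were compared by exact permutation tests in Python 3.11.15, and the exact intervals were computed with SciPy 1.17.1. The steps were tested on simulated data. Alternatives were another pseudocount, other filters and scalings, other eBayes settings, voom on recovered reads, the replicate block and leaving out each library. Genes named are the 8 genes, fixed family partners, the 3 largest rises and 3 largest falls past the threshold in each list, and, for each gene tested, the 2 closest in pattern. Some genes that this rule names are left out of the text. The 8 genes and the lists were chosen with earlier results of these data known.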

Additional observations from a re-analysis of the deposited data

How the results depend on the processing

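Of the 8 genes, the number past the threshold was 1 on the TPM as deposited, 0 with median-of-ratios scaling, 2 with limma voom on recovered reads (Cpt1a and Ppara), and from 1 to 2 when single libraries were left out. Of the 99 pathway genes, 35 passed, against 21 of 107 with no filter on low values and from 11 to 37 when single libraries were left out, the lowest without E18.5 A and the highest without E18.5 C. With median-of-ratios scaling the number was again 35, but with 7 higher and 28 lower against 22 and 13. Of all genes, 7000 passed, against 4282 with no filter, 3795 with median-of-ratios scaling, 3796 with quantile normalization and from 1472 to 5686 when single libraries were left out, again lowest without E18.5 A. The share of higher genes among those called was 83.3%, and 38.1% and 50.5% under the 2 scalings.

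The sign of Acadm ran from -0.21 to 0.081 and that of Ehhadh from -0.63 to 0.014 when single libraries were left out, positive only without replicate B of E18.5. Plin2 turned to -0.37 with median-of-ratios scaling, -0.13 with quantile normalization and -0.043 with voom. The causes were not tested. Ppara, Cpt1a, Pdk4 and Acaa1b kept their direction in all 17 alternatives, as did Fgf21 in the 1 that tested it (0.64, adjusted p = 0.177, no filter).

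Deviations of libraries with the same letter correlated at -0.042 (A), 0.081 (B) and 0.14 (C). Replicate A of E16.5 correlated best with B of E18.5 (0.084), whereas replicates B and C of E16.5 correlated best with their own letter. These values do not settle whether the letters mark pairs, and the main fit did not use them as pairs. With the letters as a replicate block, 1 of the 8 genes, 39 pathway genes and 7314 of all genes passed. Fgf21 is limited by depth, with at most 5 reads in a library.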
